A study of Homo sapiens with 6 samples.

Results

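The CLC family of chloride channels and chloride/proton exchangers was examined in HepG2, a human hepatoblastoma line that keeps many functions of liver cells. The set held 6 genes, *CLCN2*, *CLCN3*, *CLCN4*, *CLCN5*, *CLCN6* and *CLCN7*. It was chosen from measured values, because the study names *CLCN6* among the genes it carried from RNA-seq of this experiment into pathway analysis and because the difference of *CLCN6* on these arrays was known. The other 5 genes were added as its relatives. Of the 6 genes, 4 (*CLCN3*, *CLCN4*, *CLCN6* and *CLCN7*) had a transcript cluster annotated with exactly 1 gene symbol, out of 12797 such clusters among 16634 on the array. A transcript cluster is a group of exon probes read as 1 unit, which in most cases carries 1 gene symbol. *CLCN5* shared its cluster with the microRNA gene *MIR188* and is given apart, and the annotation used here named no cluster for *CLCN2*, so its expression was not analysed here.

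The data consisted of 6 GeneChip Human Exon 1.0 ST arrays. Of these, 3 came from cells without drug (control) and 3 from cells kept for 24 h in 10 µM atorvastatin, a statin that blocks HMG-CoA reductase. All 6 were grown in lipoprotein deficient serum at 3 mg/mL in collagen-coated wells. The study calls the samples biological replicates and describes them as triplicate wells. Whether the wells came from separate cultures is not given in the sources used here, and a *p*-value covers only how far these samples varied. The values were log2 expression values, on which 1 unit is a doubling. Array medians lay between 6.66 and 6.72. Of 12 hepatocyte marker genes, 7 were measured, with mean levels from 9.56 to 12.26. The 5 endothelial markers lay between 3.60 and 5.60, the 6 fibroblast markers between 2.57 and 7.19, and the 3 measured leukocyte markers between 2.67 and 8.25.

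CLC proteins are dimers in which each subunit carries its own ion path. CLC-2, the product of *CLCN2*, is a chloride channel of the plasma membrane, whereas CLC-3 to CLC-7 are found mainly on endosomes and lysosomes and exchange chloride for protons. There they work beside the V-ATPase, the proton pump that acidifies these compartments. CLC-5 serves protein uptake in the kidney and is lost in Dent disease, CLC-7 serves lysosomes and bone resorption and is lost in osteopetrosis, and CLC-6 resides on late endosomes and is best known from neurons.

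The sequence around the start of 4 of the genes is shown because all 4 stretches hold the letters CACGTG, an E-box, the kind of site that basic helix-loop-helix factors such as SREBP and TFEB can bind. The stretches run from 60 bases before to 20 bases after the RefSeq start on build GRCh38.p14. Capitals mark CACGTG, and the longer TCACGTGA where it is present. They are, in this order, chr1:11806131-11806210 (plus strand), chr16:1475009-1475088 (minus strand), chrX:10156915-10156994 (plus strand) and chrX:50067528-50067607 (plus strand), the last being 1 of 3 *CLCN5* starts.
CLCN6: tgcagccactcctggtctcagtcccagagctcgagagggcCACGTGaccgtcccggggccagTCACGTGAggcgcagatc
CLCN7: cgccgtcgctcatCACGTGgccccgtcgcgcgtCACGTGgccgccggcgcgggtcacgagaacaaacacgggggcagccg
CLCN4: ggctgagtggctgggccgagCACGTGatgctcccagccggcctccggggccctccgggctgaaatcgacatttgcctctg
CLCN5: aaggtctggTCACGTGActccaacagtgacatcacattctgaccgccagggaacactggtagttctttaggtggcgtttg

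*CLCN6* and *CLCN7* each held CACGTG 2 times, and *CLCN4* and *CLCN5* held it once. In *CLCN6* one copy began 20 bases before the start, and the other, inside TCACGTGA, lay just after it. In *CLCN7* the copies began 47 and 27 bases before the start. The search covered RefSeq windows of 300 bases, 250 before and 50 after each start, on both strands, and all 6 genes were matched, with 9 windows. CACGTG was present in 4 of the 9 windows and in 7.26% of all 35116 windows of this length. It was present at least 2 times in 0.664% of them. TCACGTGA, which contains CACGTG, was present in the windows of *CLCN6* and *CLCN5* and in 0.98% of all windows. Counted by gene, CACGTG was in 4 of the 6 CLC genes and in 8 of 30 genes of lysosomal proteins. Of those 30 genes, 4 held it at least 2 times in a window and 3 held TCACGTGA. TCACNCCAC, letters of the sterol regulatory element, was in none of the 9 windows and in 1.13% of all windows. CCAAT was found in *CLCN3* (34.6% of all windows), and GGGCGG in 5 of the 9 windows, 1 in each gene but *CLCN4* (45% of all windows). A match describes letters in the reference and not a bound site.

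*CLCN6*, the late endosomal exchanger, was the 1 member whose arrays separated by group, the property for which it was known when the set was chosen. Its log2 values were 8.90, 8.96 and 8.89 in the control arrays and 9.44, 9.39 and 9.38 in the atorvastatin arrays. Every treated array lay above every control array, with a gap of 0.42 between the highest control and the lowest treated array. The control mean was 8.92 ± 0.04 (SD, n = 3), and the atorvastatin mean was 9.40 ± 0.031 (SD, n = 3). The log2 difference was 0.48 (95% confidence interval, CI, 0.26 to 0.71), or 1.4-fold (1.2-fold to 1.63-fold). Treated minus control was 0.54, 0.42 and 0.49 for replicate numbers 1, 2 and 3. Among the 12797 clusters, 18 had a higher difference. Because *CLCN6* was taken into the set for its response in these samples, this difference is a description and is given without a test. Each array read the pooled RNA of a well, so a change in RNA per cell and a change in the make-up of the well cannot be told apart.

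Replicates of *CLCN6* were close to each other. Its SD within groups, pooled over both, was 0.036 on the log2 scale, and 4.05% of the clusters had a smaller one.

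**Figure D1:**
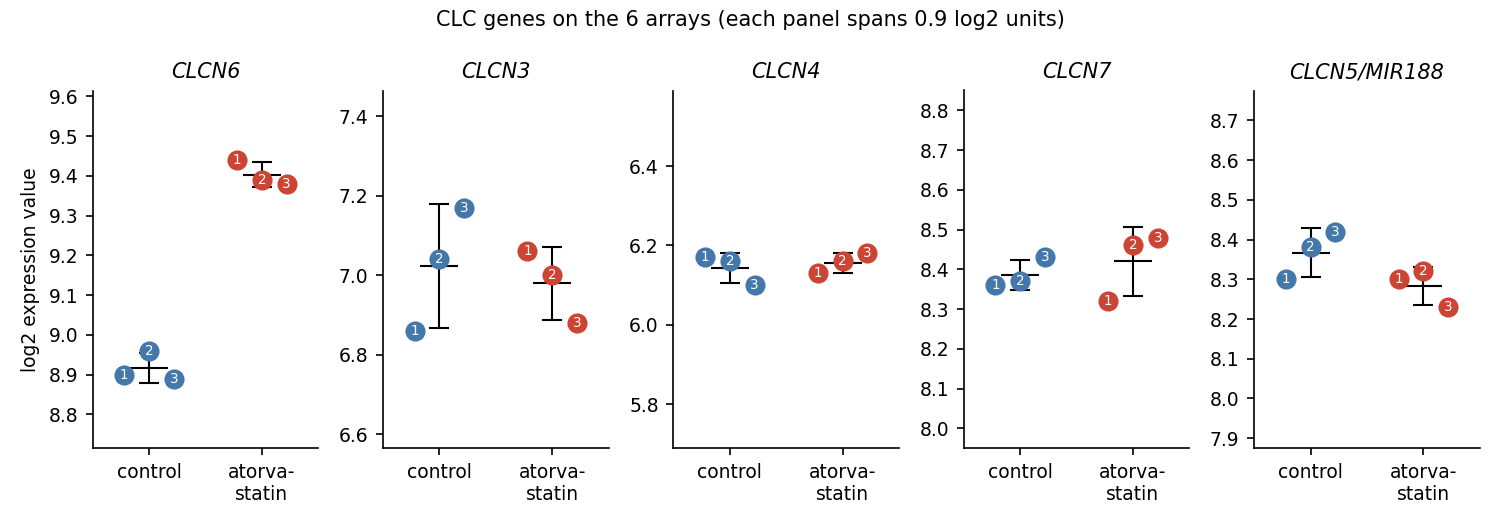
Log2 expression values (vertical axes) of the 4 CLC genes with a cluster of their own and of the *CLCN5/MIR188* cluster in control (blue) and atorvastatin (red) arrays. Points are single arrays numbered by replicate, and bars give the mean ± SD of 3 arrays. The treated arrays of *CLCN6* (9.38 to 9.44) lie above its control arrays (8.89 to 8.96), whereas the groups overlap in every other panel.

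The other 3 endosomal and lysosomal members did not differ beyond their spread. *CLCN7*, which encodes the lysosomal exchanger, had log2 values of 8.36, 8.37 and 8.43 in control and 8.32, 8.46 and 8.48 in treated arrays. The treated arrays held both its lowest and its highest value. Its log2 difference was 0.03 (95% CI −0.19 to 0.26, limma adjusted *p* = 1). *CLCN4*, an endosomal exchanger that can pair with CLC-3, had values of 6.17, 6.16 and 6.10 in control and 6.13, 6.16 and 6.18 in treated arrays. Its 6 values spanned only 0.08 log2 units, and the groups overlapped. It differed by 0.01 log2 units (95% CI −0.21 to 0.23, limma adjusted *p* = 1). It was −0.02 without replicate 3.

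*CLCN3*, an exchanger of endosomes and synaptic vesicles, varied most within groups. Its control arrays read 6.86, 7.04 and 7.17, and its treated arrays 7.06, 7.00 and 6.88. The control arrays thus spanned the whole range of the gene. The log2 difference was −0.04 (95% CI −0.33 to 0.24, limma adjusted *p* = 1), with 0.20, −0.04 and −0.29 for the 3 replicate numbers. It was 0.08 without replicate 3, so its sign rests on that replicate. These intervals reach from a 0.796-fold to a 1.2-fold difference across the 3 genes, so changes within that range are not excluded. The bounds are not a detection limit. None of the 12797 clusters passed the correction, although their log2 differences ran from −0.59 to 0.90.

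*CLCN5*, the endosomal exchanger of renal epithelium, could be read only through the cluster it shares with *MIR188*. This cluster had log2 values of 8.30, 8.38 and 8.42 in control and 8.30, 8.32 and 8.23 in treated arrays. The groups overlapped, since control replicate 1 lay within the treated range. The log2 difference was −0.08 (95% CI −0.32 to 0.16, limma adjusted *p* = 1 over all 16634 clusters). How much of the signal belongs to *CLCN5* was not tested.

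When limma was run with a block for replicate number, none of the 3 members tested passed the correction. Of the 12797 clusters 0% passed (0 clusters, with 127 at an unadjusted *p* under 0.05). The methods' paired t-test also gave 0 clusters, with 316 at an unadjusted *p* under 0.05. Limma with no block had 271 such clusters. All of these counts are under 5% of the clusters, the share expected on average when no gene changes. Tests that give so few small *p*-values may miss changes, so the lack of calls does not show that nothing changed. Groups did not overlap upwards in 1 of the 4 members, *CLCN6*, against 4.57% of all clusters tested. They did not overlap downwards in 0 of 4 members, against 2.68% of all clusters. As *CLCN6* was chosen on this contrast, nothing is read from these counts.

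Within each array, the distance of *CLCN6* from its relatives differed between the groups. *CLCN6* exceeded the mean of *CLCN3*, *CLCN4* and *CLCN7* by 1.77, 1.77 and 1.65 log2 units in the control arrays and by 2.27, 2.18 and 2.20 in the treated arrays. The distance from *CLCN7* alone ran from 0.46 to 0.59 in control and from 0.90 to 1.11 in treated arrays. The distances from *CLCN4* were 2.73 to 2.80 and 3.20 to 3.31, and those from *CLCN3* 1.72 to 2.04 and 2.38 to 2.49. In all of these the treated arrays lay above the control arrays. These distances include *CLCN6* itself and are given without a test.

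By mean log2 level over the 6 arrays, the order was *CLCN6* (9.16), *CLCN7* (8.40), the *CLCN5/MIR188* cluster (8.32), *CLCN3* (7.00) and *CLCN4* (6.15). *CLCN7* and the *CLCN5/MIR188* cluster overlapped in their arrays, and the other neighbours in this order did not. In control cells, *CLCN6* was brighter than 87.5% of all clusters, *CLCN7* than 80.7%, the *CLCN5/MIR188* cluster than 80.4%, *CLCN3* than 56.6% and *CLCN4* than 40%. Levels of different genes come from different probes, so the order describes array signal and not transcript numbers.

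*CLCN1*, the chloride channel of skeletal muscle, had a dim mean level of 5.63 and a log2 difference of 0.11 (95% CI −0.24 to 0.46, limma adjusted *p* = 1), which was −0.09 without replicate 3. *OSTM1*, which encodes the partner subunit that CLC-7 needs in lysosomes, had values of 7.13, 7.34 and 7.30 in control and 7.25, 7.26 and 7.23 in treated arrays. All of its treated arrays lay within the range of the controls. It differed by −0.01 log2 units (95% CI −0.24 to 0.23, limma adjusted *p* = 1), and 0.03 without replicate 2. *BSND*, which encodes barttin, an accessory CLC subunit, had a mean level of 5.39 and a log2 difference of 0.15 (95% CI −0.10 to 0.40, adjusted *p* = 1).

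The genes nearest to *CLCN6* on chromosome 1 with a cluster of exactly 1 symbol were *AGTRAP*, 5 genes before, and *NPPA*, 2 genes after. The genes in between had no such cluster and were not read. *AGTRAP* encodes a protein that binds the angiotensin receptor, and *NPPA* encodes the atrial natriuretic peptide. For *AGTRAP* the groups differed by 0.13 log2 units (95% CI −0.10 to 0.35, limma adjusted *p* = 1). *NPPA* had one of 0.17 (−0.09 to 0.43, adjusted *p* = 1) at a dim mean level of 5.49. Every treated array of *AGTRAP* lay above every control array, as in 4.57% of all clusters. The gap was smaller than the rounding, since the highest control and the lowest treated array both read 8.52. The groups of *NPPA* overlapped. Among the 12797 clusters, 883 had a higher difference than *AGTRAP* and 436 a higher one than *NPPA*. Both intervals include 0, and both means lay below that of *CLCN6*, although the differences between the genes were not tested.

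**Figure D2:**
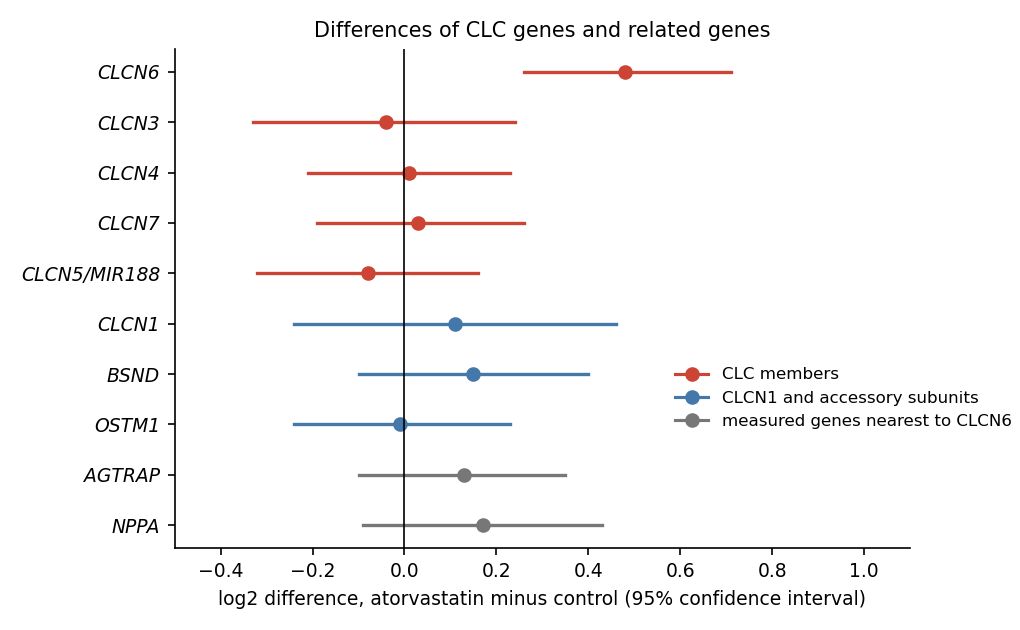
Log2 difference between atorvastatin and control arrays (horizontal axis; points) with its 95% confidence interval (lines) for CLC genes (red), *CLCN1* and accessory subunits (blue) and the measured genes nearest to *CLCN6* (grey). *CLCN6*, chosen for its difference, stands at 0.48, and the other genes shown stand between −0.08 and 0.17, with intervals that include 0.

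The pattern of *CLCN6* over the 6 arrays was most like those of *FASN*, *FDPS*, *PRSS8*, *ACLY* and *TM7SF2*. Likeness was the root mean square difference of log2 values, each centred on the mean of its gene, over 8212 other clusters with a mean level of at least 6. The nearest was *FASN*, which encodes fatty acid synthase (root mean square difference 0.052). It had values of 10.04, 10.01 and 9.93 in control and 10.44, 10.54 and 10.45 in treated arrays. *FDPS*, which encodes farnesyl diphosphate synthase, followed at 0.064, with 8.26, 8.36 and 8.20 in control and 8.90, 8.89 and 8.75 in treated arrays. The choice by likeness fixes that these genes separate by group as *CLCN6* does, with folds near its own. *PRSS8*, which encodes the serine protease prostasin, stood at 0.067, as did *ACLY*, which encodes ATP citrate lyase. *TM7SF2*, which encodes a sterol reductase, stood at 0.068. The fold differences were 1.4 for *FASN*, 1.49 for *FDPS*, 1.37 for *PRSS8*, 1.36 for *ACLY* and 1.38 for *TM7SF2*, beside 1.4 for *CLCN6*.

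Among the relatives, *CLCN7* stood at place 2413, *CLCN4* at place 2569 and *CLCN3* at place 6006 of this order. A gene without a difference between the groups cannot stand among the nearest, by the way the measure is built. The study also names all 5 of the nearest genes among those it carried into pathway analysis. The measure compares array values and carries no test.

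**Figure D3:**
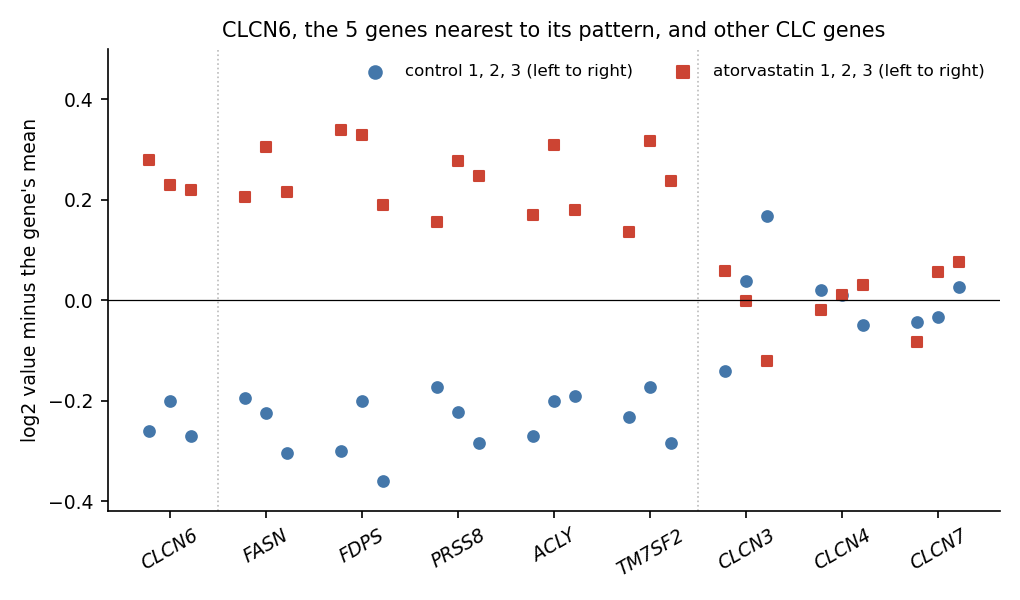
Log2 values minus the mean of each gene (vertical axis) in control (blue circles) and atorvastatin (red squares) arrays for *CLCN6*, the 5 clusters nearest to its pattern and the other CLC genes, with the 3 arrays of a group side by side. In *CLCN6* and the 5 nearest genes, controls and treated arrays lie apart on either side of 0, whereas they mix in *CLCN3*, *CLCN4* and *CLCN7*.

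Genes that work in the same compartments were compared with the whole array, where 55.8% of the clusters were higher in treated cells and the median log2 difference was 0.0112. Of 24 V-ATPase genes, 16 were measured, 9 were higher and 7 lower on average, and the median log2 difference was 0.0221. None passed the correction. *ATP6V0D1*, a subunit of the membrane part of the pump, had values of 10.10, 10.18 and 10.18 in control and 10.28, 10.26 and 10.23 in treated arrays, a log2 difference of 0.10 (95% CI −0.12 to 0.32, limma adjusted *p* = 1). It was 1 of 16 pump genes whose treated arrays all lay above the controls, beside 4.57% of all clusters. *ATP6V1C1*, a subunit of the cytosolic part, had a log2 difference of −0.17 (−0.54 to 0.19, adjusted *p* = 1), which was 0.01 without replicate 3. *ATP6V1E2*, a dim gene at 4.94, had one of 0.21 (−0.05 to 0.48, adjusted *p* = 1).

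Of 14 genes of other ion transport in endosomes and lysosomes, 11 were measured, 9 were higher and 2 lower on average (81.8% higher), with log2 differences between −0.02 and 0.08 and a median of 0.0451. The highest ones were in *P2RX4*, an ATP-gated channel, and *SLC36A1*, a proton-coupled amino acid transporter, among genes with a mean of at least 6 (0.08 and 0.07, limma adjusted *p* = 1 for each), and *MCOLN3*, a dim cation channel gene at 3.19, had 0.06 (adjusted *p* = 1). None passed the correction, and in none did the groups separate. Of 35 other chloride channel genes, 26 were measured, 14 of them dim with a mean under 6. On average 21 were higher and 5 lower (80.8% higher), with differences from −0.13 to 0.12 and a median of 0.0562, and none passed. Named after their values were seen, *TTYH3* (log2 difference 0.07) was the 1 gene of this list with every treated array above the controls, and *CLIC4* (−0.05) the 1 with every treated array below, beside 4.57% and 2.68% of all clusters. *BEST4*, a bestrophin, had a log2 difference of 0.12 (95% CI −0.11 to 0.36) and *GLRA1*, a glycine receptor subunit, of −0.13 (−0.39 to 0.14), and *ANO4*, an anoctamin, had one of 0.11 (−0.15 to 0.38), each with a limma adjusted *p* of 1. Their mean levels were dim, at 5.71 for *BEST4*, 3.92 for *GLRA1* and 3.74 for *ANO4*.

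Of 42 genes of lysosomal proteins, 31 were measured, 22 were higher and 9 lower on average (71% higher), and the median log2 difference was 0.0139. None passed the correction over all clusters. In 6 of them every treated array lay above every control array, and in 1 below, beside 4.57% and 2.68% of all clusters. *NEU1*, which encodes the lysosomal sialidase, had values of 9.79, 9.82 and 9.87 in control and 10.09, 10.23 and 10.05 in treated arrays. The groups were separate, with a log2 difference of 0.29 (95% CI 0.06 to 0.53, limma adjusted *p* = 1). *GM2A*, the activator of ganglioside breakdown, had one of 0.18 (−0.05 to 0.41, adjusted *p* = 1). *CTSB*, which encodes cathepsin B, went the other way, from 10.33, 10.31 and 10.30 in control to 10.02, 10.18 and 10.13 in treated arrays, a log2 difference of −0.20 (−0.43 to 0.03, adjusted *p* = 1). The study names all 3 genes, and *NPC1* of the 6, among those it carried into pathway analysis, so the counts of this list carry no independent weight on a direction.

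**Figure D4:**
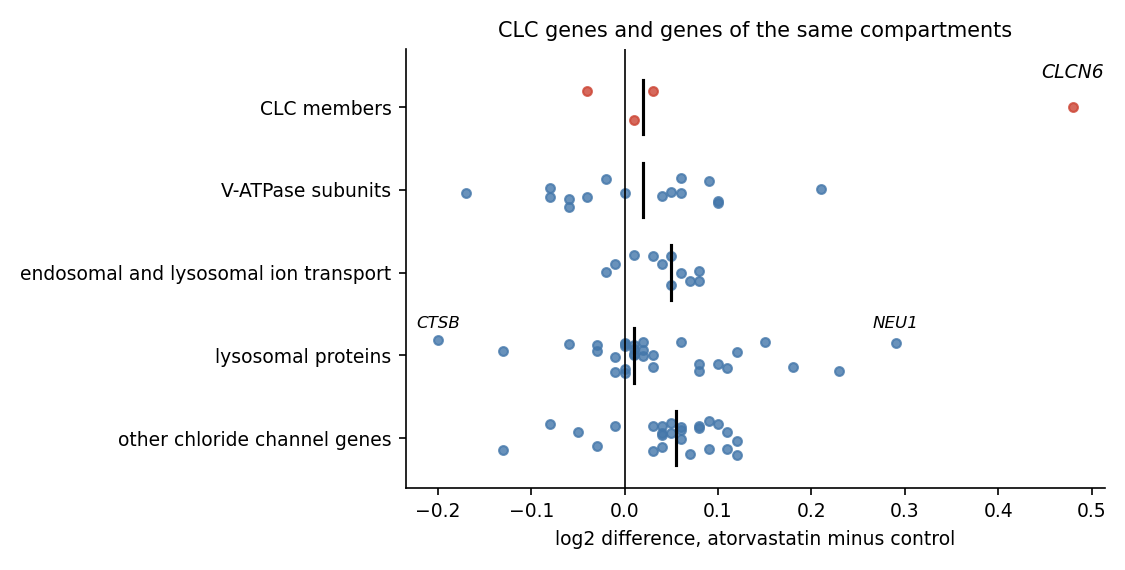
Log2 difference between atorvastatin and control arrays (horizontal axis) for each measured gene of the CLC set and of 4 gene lists (rows). Each point is a gene, spread vertically for legibility, and black bars mark the median of a row. *CLCN6* stands at 0.48, whereas the genes of the 4 lists lie between −0.20 (*CTSB*) and 0.29 (*NEU1*).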

How the data were processed

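Gene expression was measured in 6 HepG2 samples. From the scanned CEL files the authors computed RMA values in Partek, limited them to core meta-probe sets, and deposited 1 log2 value per transcript cluster and array, the average of its core probe sets (1.48 to 13.05). No version of either tool is given in the sources used here. Per the labels, the build was hg18. Probe intensities were not used, so probes and exons within a cluster could not be told apart. The 3 arrays a group limit the precision.

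Symbols came from the platform annotation. Of the 12797 clusters with 1 symbol, 12774 had an Entrez ID in the RefSeq table. Treated and control values were compared in limma 3.58.1 (R 4.3.3, lmFit and eBayes) with replicate number as a block, after the paired test of the methods, with Benjamini-Hochberg adjustment at 5% over all 12797 clusters. The fit was also run on simulated data with independent noise and no replicate effect, which does not show how well it performs on these arrays. Members and the 6 gene lists were chosen with earlier results of these data known. Named were the members, the 3 genes of smallest *p* of each list, the 5 clusters nearest to *CLCN6* in pattern and the nearest measured genes on its chromosome. Promoter windows came from RefSeq (GRCh38.p14), and motifs and figures were made in Python 3.11.15 with matplotlib 3.10.9. The alternatives were no block, a filter on means under 6, a robust variance with trend, median centring, quantile normalization, every cluster, both t-tests, and each replicate or array left out. Protein sequences were not used here.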

Additional observations from a re-analysis of the deposited data

How the results depend on the processing

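The log2 difference of *CLCN6* was 0.48 to 0.49 under the 6 other settings and 0.46 to 0.51 when 1 replicate number or 1 array was left out. With equal groups, dropping the block, changing the variance, filtering on level or fitting every cluster cannot move this difference of means. Of the 6 settings, only median centring (0.48) and quantile normalization (0.49) could have moved it. The count of called clusters, 0 with the block, was 4 with no replicate block, 21 with a trended and robust variance, and 0 to 32 with 1 replicate number or array left out (16 without replicate 1, 32 without replicate 3, 6 without control replicate 1 and no block). Correlations of same-numbered arrays' deviations from their group means were −0.463, 0.0725 and −0.557, which gave no sign of pairing by number. With 3 arrays a group these correlations cannot decide whether the samples were paired. The block was kept because the methods name a paired test. *CLCN4* was −0.01 after quantile normalization. With 1 replicate or array left out, *CLCN3* ran from −0.16 to 0.08, *CLCN4* from −0.02 to 0.04, *CLCN1* from −0.09 to 0.28, *OSTM1* from −0.07 to 0.03 and *ATP6V1C1* from −0.37 to 0.01. *CLCN7* stayed between 0.005 and 0.08 and the *CLCN5/MIR188* cluster between −0.12 and −0.03. Over the same fits *NPPA* ran from 0.06 to 0.27, *BSND* from 0.06 to 0.23, *ATP6V1E2* from 0.09 to 0.31, *GLRA1* from −0.24 to −0.04, *ANO4* from 0.02 to 0.22, *MCOLN3* from 0.005 to 0.13, *BEST4* from 0.08 to 0.20, *P2RX4* from 0.04 to 0.14 and *SLC36A1* from 0.04 to 0.12. The median of the lysosomal list ran from −0.02 to 0.05 and that of the other chloride channels from −0.02 to 0.10. Without atorvastatin replicate 3 and with no block, *CLCN3* was 0.003 and *CLCN4* −0.001. The cause of these shifts was not tested. No member had a second cluster, so that alternative gave no value.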
